A study of Homo sapiens with 6 samples.

Results

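The transcripts of 10 genes of the oxygen-sensing pathway were examined among the 63140 genes quantified by RNA-seq in BT-549 cells grown in adipocyte-conditioned medium (ACM) or unconditioned medium (UCM). The members were taken by symbol. They are the hypoxia-inducible factor (HIF) subunits HIF1A, EPAS1 and ARNT, the ubiquitin ligase subunit VHL, the prolyl hydroxylases EGLN1 and EGLN3, and the targets VEGFA, ADM, BNIP3 and NDRG1. All 10 were found, and all 10 passed the filter on low counts. Against UCM, EPAS1 was 1.71-fold higher in ACM, BNIP3 1.63-fold, EGLN1 1.29-fold and VHL 1.27-fold. The call of EPAS1 held whichever library was left out, whereas that of EGLN1 was lost in 3 of these 6 fits, VHL in 4 and BNIP3 in 5. NDRG1 (2.59-fold) and VEGFA (1.74-fold) had larger folds that were not called, and HIF1A was not called.

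BT-549 is an established triple negative breast cancer line, and the labels give its genotype as WT. Cells of 3 libraries were kept in ACM and cells of the other 3 in UCM, all for 24 h in wells of a culture plate. Nothing states that replicates came from separate cultures beyond the wells, so p-values measure the spread between these samples, which may be technical. ACM had been conditioned by mouse OP9 cells differentiated to adipocytes in an insulin and oleate medium built on alpha-MEM with little serum. UCM has no stated formula. Besides what the adipocytes secreted, the groups may thus differ in serum, insulin, oleate or base medium, and these cannot be told apart. The labels give 50% ACM, whereas the supplementary methods give undiluted ACM for RNA-seq. No oxygen level and no low-oxygen culture is described.

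In cells with enough oxygen, prolyl hydroxylases modify the HIF alpha subunits, VHL recognises the modified protein, and the protein is degraded. In low oxygen the alpha subunit escapes, joins ARNT in the nucleus and binds short DNA elements with the core letters ACGTG or GCGTG. Its targets include genes of glycolysis, vessel growth, collagen modification and mitochondrial turnover, and also EGLN1 and EGLN3 themselves, which close a feedback loop. HIF activity is set mainly by protein stability, and RNA-seq measures transcripts and not protein.

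The promoter letters of the members are shown because HIF binds the core element, which alone does not mark a gene as a target. RefSeq promoters of build GRCh38.p14, from 250 bases before to 50 bases after each start, were given for 7 of the 10 members, and VHL, VEGFA and NDRG1 had no entry. ACGTG and GCGTG were searched on both strands, each hit being counted. Either element was in 5 of the 8 windows of these 7 members, against 48.4% of all 35116 windows in the table. These 5 windows belonged to HIF1A, EPAS1, EGLN1, ADM and BNIP3. ACGTG was in 21.4% of all windows and GCGTG in 36.5%, some windows holding both. BNIP3 had 6 hits, and 0.923% of windows had as many. ARNT and EGLN3 had no match in these windows. The stretches below are written 5′ to 3′ on the gene's strand, with the elements in capitals and up to 30 bases on either side.
HIF1A, chr14:61695279-61695343, plus strand: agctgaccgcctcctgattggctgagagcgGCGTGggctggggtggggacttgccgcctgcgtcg
EPAS1, chr2:46297260-46297324, plus strand: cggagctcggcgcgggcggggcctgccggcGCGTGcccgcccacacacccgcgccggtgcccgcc
EGLN1, chr1:231422288-231422330, minus strand: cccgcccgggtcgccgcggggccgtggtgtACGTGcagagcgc
ADM, chr11:10304942-10305006, plus strand: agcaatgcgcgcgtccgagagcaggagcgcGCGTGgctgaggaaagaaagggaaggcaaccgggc
BNIP3, chr10:131981993-131982096, minus strand: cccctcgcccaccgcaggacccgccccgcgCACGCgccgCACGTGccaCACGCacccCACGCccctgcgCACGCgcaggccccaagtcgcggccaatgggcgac
In BNIP3 the 4 hits spelled CACGC are GCGTG read on the other strand. The CACGTG in between holds ACGTG on both strands, so 2 of the 6 hits overlap, and it is also the E-box, a core of other basic helix-loop-helix factors that was in 7.26% of all windows. The first base of the element lay at position -13 in EGLN1, -101 in ADM, -117 in EPAS1 and -204 in HIF1A, counted on the gene's strand. HIF1A had a second window in the table, which held neither element. The EPAS1 start in RefSeq lies inside the longer GENCODE gene. A match is a description of the letters, and binding was not measured.

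Total expected counts ran from 18011670 to 21053257 per ACM library and from 17135288 to 20975782 per UCM library. Values are given as CPM, counts scaled to the library total times edgeR's TMM factor, for comparing libraries, and as the deposited TPM, which is per transcript length, for comparing genes. The 14451 genes that passed the filter were compared with edgeR's quasi-likelihood test, and a gene was called at a Benjamini-Hochberg adjusted p at or below 0.05. Among them, 3.35% were called higher in ACM and 2.21% lower. UCM replicates 2 and 3 were much alike, with a chi-square per degree of freedom of 2.35 over genes against 13.2 to 21.4 for the other pairs within a group, so UCM replicate 1 stood apart from them. The label calls the cells epithelial, but the 7 epithelial markers summed to at most 2.21 TPM in any library and the 4 mesenchymal markers to at least 2900 TPM. ESR1 and PGR were listed at 0 everywhere, whereas ERBB2, the gene of HER2, had 26.4 to 28.5 TPM in ACM and 25.4 to 32.4 TPM in UCM. Adipocyte markers summed to at most 0.33 TPM and endothelial markers to at most 0.04 TPM. CD68, a lysosomal protein best known from macrophages, was higher in ACM (log2 FC 1.76, edgeR adjusted p = 0.0335), while the leukocyte marker PTPRC was at most 0.18 TPM in any library. The call of CD68 held in 3 of the 6 fits that leave out a library.

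Of the 10 members, 4 were called higher in ACM, against 3.35% of all tested genes, and 0 were called lower, against 2.21%. At an unadjusted p of at most 0.05 the counts were 7 higher, against 11.9% of all tested genes, and 0 lower, against 11.5%. DESeq2 called 6 higher, against 5.52% of the genes to which it gave an adjusted p, and 0 lower, against 3.21%, and gave none to EGLN3. Without UCM replicate 1, edgeR called 3 members higher, without ACM replicate 2 it called 2, and without UCM replicate 2 or 3 it called 1, EPAS1. The study, which used DESeq2, states a p up to 0.05 with an absolute log2 FC from 0.58 upwards, and not whether p was adjusted. Applied here to edgeR's unadjusted p, these thresholds gave 4 members higher (4.12% of all genes) and 0 lower (1.71%). These 4 were EPAS1, BNIP3, VEGFA and NDRG1, so only EPAS1 and BNIP3 met both rules, while VHL and EGLN1 fell short of the fold limit. All 3 ACM values of CPM lay above all 3 UCM values for 7 members (13.9% of all genes) and below them for 0 members (15.1%), and HIF1A, EGLN3 and ADM overlapped. The median log2 FC of the members was 0.36, against -0.01 over all tested genes. The members are a short hand-picked list, chosen with results of these libraries known, so these counts describe the list and test nothing about it.

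**Figure D1:**
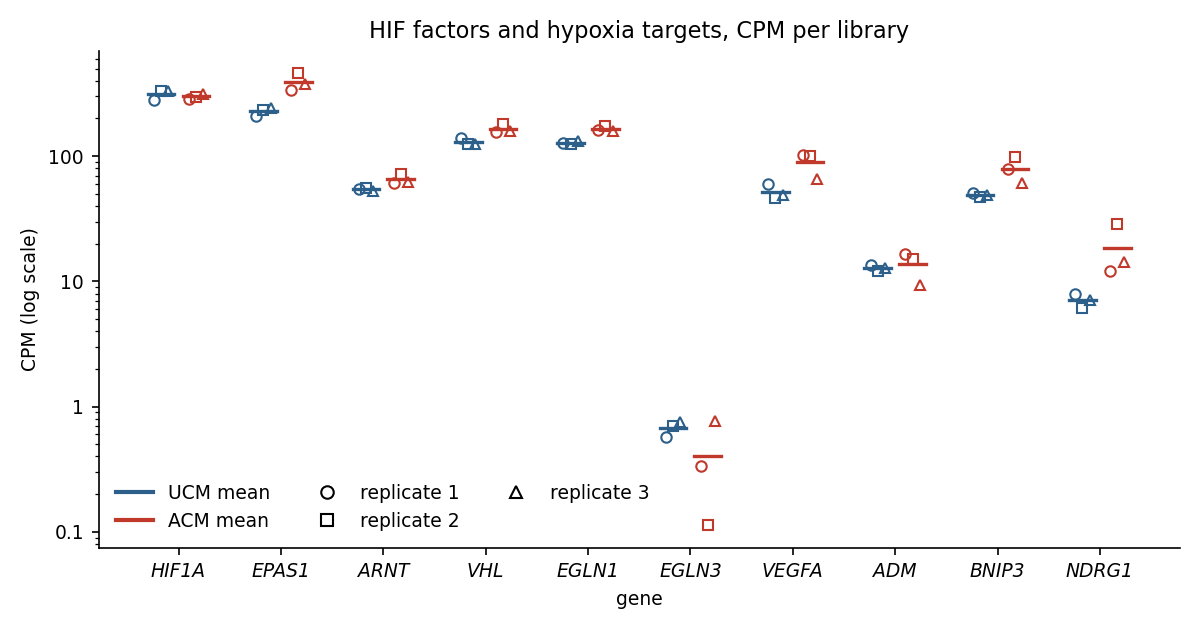
CPM on a log axis for the 10 members, with each library as an open symbol (circle, square and triangle for replicates 1, 2 and 3) and group means as bars, blue for UCM and red for ACM. The ACM symbols of EPAS1, ARNT, VHL, EGLN1, VEGFA, BNIP3 and NDRG1 all lie above their UCM symbols, whereas those of HIF1A, EGLN3 and ADM overlap.

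The alpha subunits were examined first. HIF1A, the broadly expressed alpha subunit (ENSG00000100644, chr14:61695513-61748259, plus strand, as in GENCODE 44 on GRCh38, as are the positions that follow), had 286, 297 and 316 CPM in ACM replicates 1, 2 and 3 and 283, 329 and 329 CPM in UCM. The groups overlapped, with the lowest value of all in UCM replicate 1. The log2 FC was -0.07 ± 0.08 (SE, n = 3 per group; edgeR adjusted p = 0.670). The point estimate stayed between -0.13 and -0.02 whichever library was left out.

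EPAS1 encodes HIF-2 alpha, a paralog of HIF1A with a narrower tissue range (ENSG00000116016, chr2:46293667-46386697, plus strand). It had 337, 458 and 380 CPM in ACM and 211, 234 and 242 CPM in UCM. Every ACM library was above every UCM library, and ACM replicate 2 was the highest. EPAS1 rose by 0.77 ± 0.11 on the log2 scale (SE, n = 3 per group; edgeR adjusted p = 0.00655), a fold of 1.71. The call held in all 14 alternatives, with a log2 FC between 0.65 and 0.88 and an adjusted p of at most 0.0342.

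Per transcript length, EPAS1 was below HIF1A in UCM and about level with it in ACM. In UCM, HIF1A stood at 126 ± 7.78 TPM and EPAS1 at 68.5 ± 5.29 TPM (SD, n = 3), with no overlap. In ACM they stood at 118 ± 7.09 and 116 ± 16.0 TPM, and their ranges overlapped. The ratio of HIF1A to EPAS1 TPM was 1.84, 1.91 and 1.78 in the UCM libraries and 1.14, 0.862 and 1.11 in the ACM libraries. Only ACM replicate 2 held more EPAS1 than HIF1A on this scale. On CPM the log2 ratio was 0.45 ± 0.03 in UCM and -0.38 ± 0.22 in ACM (SD, n = 3), a difference of -0.83 with an exact permutation p of 0.1 (two-sided), which is the smallest that 3 against 3 allows. With TPM the difference was -0.84 (exact permutation p = 0.1).

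**Figure D2:**
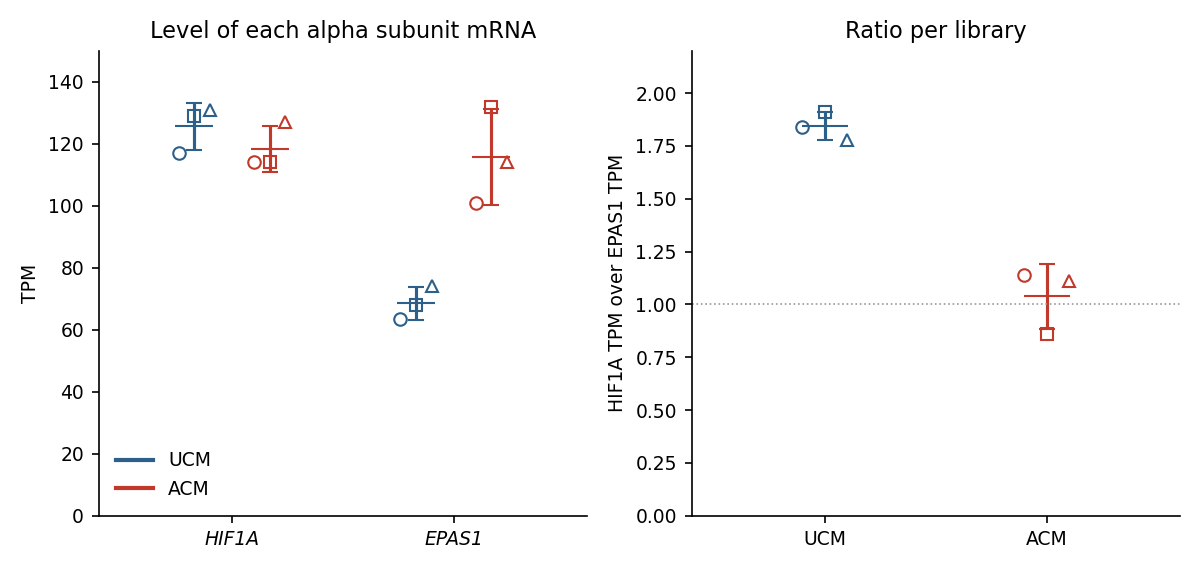
Left, TPM of HIF1A and EPAS1 in each library, with bars at the mean ± SD of 3 libraries (blue UCM, red ACM). Right, the ratio of HIF1A to EPAS1 TPM per library, where the 3 UCM libraries sit between 1.78 and 1.91, the 3 ACM libraries between 0.862 and 1.14, and the dotted line marks equal levels.

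ARNT, the constitutive beta subunit that pairs with either alpha subunit (ENSG00000143437, chr1:150809713-150876708, minus strand), had 61.3, 71.9 and 62.4 CPM in ACM and 54.3, 56.0 and 52.9 CPM in UCM. The CPM values did not overlap, but the TPM values did (28.7 to 34.9 against 24.2 to 28.9). The log2 FC was 0.26 ± 0.08 (SE, n = 3 per group), which was not called (edgeR adjusted p = 0.0926). It was called with genes of at least 1 count in total kept (edgeR adjusted p = 0.0487). In the same cells the ARNT transcript was the least abundant of the 3 subunits, at 31.3 ± 3.24 TPM in ACM and 26.4 ± 2.36 TPM in UCM (SD, n = 3).

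The degradation arm followed. VHL is the substrate-recognition subunit of the ubiquitin ligase that marks hydroxylated HIF alpha (ENSG00000134086, chr3:10141778-10153667, plus strand). It had 155, 181 and 159 CPM in ACM and 139, 125 and 125 CPM in UCM. The groups did not overlap, with the nearest values in ACM replicate 1 and UCM replicate 1. VHL rose by 0.35 ± 0.08 on the log2 scale (SE, n = 3 per group; edgeR adjusted p = 0.0352). The call was lost without ACM replicate 2 (log2 FC 0.27, edgeR adjusted p = 0.13), ACM replicate 3 (0.0768), UCM replicate 2 (0.161) or UCM replicate 3 (0.138), and with TPM or effective-length offsets (edgeR or limma adjusted p from 0.0672 to 0.0971).

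EGLN1 encodes PHD2, the main oxygen-dependent prolyl hydroxylase of HIF alpha (ENSG00000135766, chr1:231363751-231422287, minus strand). It had 162, 174 and 158 CPM in ACM and 127, 126 and 131 CPM in UCM. Its UCM libraries were close together and all below the ACM libraries. EGLN1 rose by 0.36 ± 0.07 on the log2 scale (SE, n = 3 per group; edgeR adjusted p = 0.0135). Without ACM replicate 2, UCM replicate 2 or UCM replicate 3 the edgeR adjusted p was 0.0536, 0.082 and 0.0522, with a log2 FC between 0.32 and 0.39, and with limma on either TPM scale the adjusted p was 0.054 and 0.053.

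EGLN3 encodes PHD3, a hydroxylase known for strong induction by hypoxia (ENSG00000129521, chr14:33924227-34462774, minus strand). It had 7, 2 and 14 counts in the ACM libraries and 12, 13 and 13 counts in the UCM libraries. ACM replicate 3 was level with the UCM libraries, and ACM replicate 2 was the lowest. The log2 FC of -0.73 ± 0.58 (SE, n = 3 per group; edgeR adjusted p = 0.499) was not called. The effective length of EGLN3 was 1019 bases in ACM replicate 1 and 2423 to 2443 bases elsewhere. In TPM, ACM replicate 1 was the highest library, at 0.46 TPM. With effective-length offsets the log2 FC was -0.33, and with limma on log2(TPM + 1) it was -0.09. The gene's span in GENCODE also holds SPTSSA on the same strand, with 5187 counts over all libraries against 61 for EGLN3. The log2 ratio of EGLN1 to EGLN3 CPM was higher in ACM by 1.5, with an exact permutation p of 0.2, and by 0.74 without ACM replicate 2.

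The targets came next. VEGFA, the growth factor of vessel sprouting (ENSG00000112715, chr6:43770184-43786487, plus strand), had 103, 100 and 65.3 CPM in ACM and 59.7, 46.0 and 48.7 CPM in UCM. The CPM values did not overlap, though ACM replicate 3 was near UCM replicate 1. In TPM these 2 libraries crossed, at 47.3 and 48.6 TPM. The log2 FC was 0.80 ± 0.19 (SE, n = 3 per group), which was not called (edgeR adjusted p = 0.0604). It was called by DESeq2 (adjusted p = 1.89e-05), with genes of at least 1 count in total kept, and without ACM replicate 3 (log2 FC 0.97, edgeR adjusted p = 0.0118). The effective length of VEGFA, which follows its transcript mix, ran from 1783 to 2225 bases over the libraries, both extremes being in UCM.

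ADM, a secreted vasodilator peptide precursor (ENSG00000148926, chr11:10305073-10307397, plus strand), had 16.5, 15.1 and 9.35 CPM in ACM and 13.5, 12.0 and 12.7 CPM in UCM. The ACM libraries held both the highest and the lowest values, so the groups overlapped. The log2 FC was 0.10 ± 0.19 (SE, n = 3 per group; edgeR adjusted p = 0.806), and it was -0.05 without ACM replicate 1.

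BNIP3 encodes a mitochondrial outer-membrane protein that recruits the autophagy machinery (ENSG00000176171, chr10:131967684-131981967, minus strand). It had 78.2, 98.7 and 61.3 CPM in ACM and 50.7, 46.8 and 48.9 CPM in UCM. The ACM libraries were spread widely, the UCM libraries were close together, and the groups did not overlap. BNIP3 rose by 0.70 ± 0.16 on the log2 scale (SE, n = 3 per group; edgeR adjusted p = 0.0424). The call was lost without ACM replicate 1 (edgeR adjusted p = 0.0895), ACM replicate 2 (0.0555), UCM replicate 1 (0.0833), UCM replicate 2 (0.169) or UCM replicate 3 (0.138), and the log2 FC then lay between 0.52 and 0.74. BNIP3 has many processed pseudogenes, of which none had over 24 counts in all against 7304 for BNIP3.

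NDRG1, a stress-responsive gene used as a hypoxia marker (ENSG00000104419, chromosome 8, minus strand), had 12.2, 28.7 and 14.2 CPM in ACM and 7.96, 6.13 and 7.06 CPM in UCM. Every ACM library was above every UCM library, and ACM replicate 2 was far above the other two. The log2 FC of 1.37 ± 0.34 (SE, n = 3 per group) was the largest of the members, and it was not called (edgeR adjusted p = 0.0689). Without ACM replicate 2 the log2 FC was 0.90 and the gene was called (edgeR adjusted p = 0.0358). It was also called without ACM replicate 1 (1.61, edgeR adjusted p = 0.0378), by DESeq2 (adjusted p = 2.5e-05), with effective-length offsets and with limma on log2(TPM + 0.1).

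**Figure D3:**
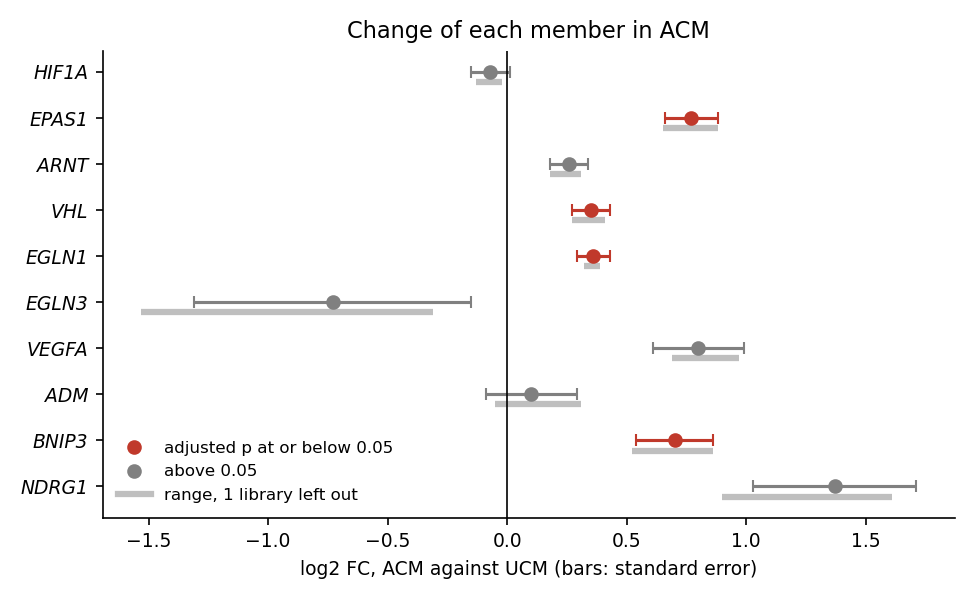
Log2 FC of ACM against UCM for each member (points, with bars of 1 standard error from edgeR), red where the adjusted p was at or below 0.05, and grey bars for the range when 1 library is left out. The points of EPAS1, VHL, EGLN1 and BNIP3 are red, NDRG1 lies furthest right at 1.37, and EGLN3 has the widest bars.

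The members were also compared within the ACM group. ACM replicate 2 held the highest ACM value for 6 members, namely EPAS1, ARNT, VHL, EGLN1, BNIP3 and NDRG1, whereas VEGFA and ADM were highest in replicate 1 and HIF1A and EGLN3 in replicate 3. Among the ACM libraries, replicate 3 held the lowest values of EGLN1, VEGFA, ADM and BNIP3. Relative to the UCM mean, NDRG1 was 2.03 higher on the log2 scale in ACM replicate 2 against 0.80 and 1.02 in replicates 1 and 3. CD68 was also highest in ACM replicate 2, at 30.5 TPM against 12.1 and 21.4 TPM in replicates 1 and 3, and its part in these results was not tested. In bulk RNA, fewer cells of a kind and less RNA per cell cannot be told apart.

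**Figure D4:**
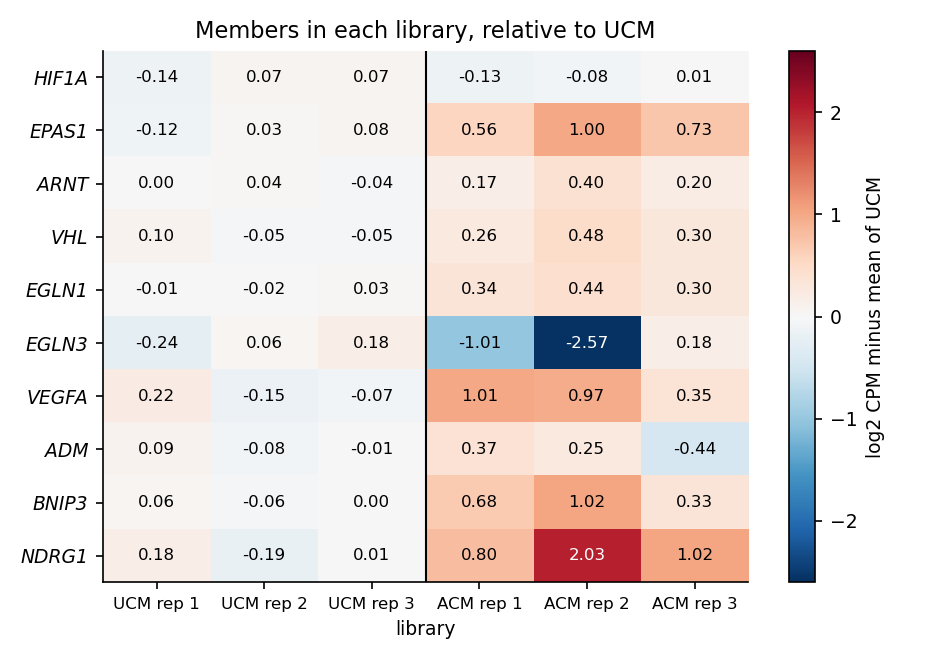
Log2 CPM of each member (rows) in each library (columns, UCM then ACM), minus the mean of the 3 UCM libraries, with values printed in the cells and red for higher. The column of ACM replicate 2 holds the deepest red (NDRG1, 2.03) and the deepest blue (EGLN3, -2.57).

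In the order of TPM levels, HIF1A was highest and EGLN3 lowest in both groups. In UCM the order was HIF1A, EPAS1, BNIP3 (58.8), EGLN1 (50.1), VHL (44.5), VEGFA (38.2), ARNT (26.4), ADM (17.1), NDRG1 (4.64) and EGLN3 (0.397 TPM). Of these neighbours, EGLN1 with VHL and VHL with VEGFA had overlapping ranges. In ACM, BNIP3 stood at 94.7 TPM, VEGFA at 66.8, EGLN1 at 63.6, VHL at 55.9, ARNT at 31.3, ADM at 17.7, NDRG1 at 12.5 and EGLN3 at 0.323. There the ranges overlapped between each neighbour from HIF1A down to EGLN1, and between ADM and NDRG1. VEGFA moved from below VHL to above EGLN1 in this order, within overlapping ranges in ACM.

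For each called member the tested genes with the most similar log2 CPM over the 6 libraries were listed, as a description in which all points share the split of the groups. EPAS1 was matched most closely by YIPF3, SMOX and LINC00963 (Pearson r of 0.998, 0.998 and 0.998 over 6 libraries). VHL was matched by MMP2, NT5E and DUSP4 (0.999, 0.999 and 0.998). EGLN1 was matched by P4HA3, SPATA2L and MYCBP (0.998, 0.997 and 0.996), and BNIP3 by ZNF506, PDCD4 and BSDC1 (0.996, 0.994 and 0.993). P4HA3, a collagen prolyl hydroxylase subunit, was called higher (log2 FC 0.78, edgeR adjusted p = 0.00232), and the 3 genes most like BNIP3 were not called.

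The wider pathway was read from 6 lists with 94 genes outside the members. Of the 85 tested, 14 were called higher in ACM, against 3.35% of all genes, and 1 was called lower, against 2.21%. These lists too were chosen with earlier results of these data known. Their counts, here and list by list below, therefore describe the lists and test nothing about them. The median log2 FC was 0.20. Higher calls fell in the lists of glycolysis, other targets, and partners of VEGFA and ADM.

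Among the HIF partners and co-activators, 0 of 4 tested genes were called in either direction by edgeR, with 0 higher and 1 lower at an unadjusted p of at most 0.05, where 11.9% and 11.5% of all tested genes lay. CREBBP, a histone acetyltransferase that HIF alpha binds, had a log2 FC of -0.23 (edgeR adjusted p = 0.134). CITED2, which competes with HIF alpha for that binding, had -0.08 (edgeR adjusted p = 0.735), and 0.03 without UCM replicate 3. HIF3A had 3, 6 and 1 counts in the ACM libraries and 0 counts in UCM, and was not tested. Among the other genes of oxygen sensing and HIF degradation, 0 of 10 were called by edgeR, with 0 higher and 2 lower at an unadjusted p of at most 0.05, against the same 11.9% and 11.5%. The ligase subunit RBX1 had -0.30 (edgeR adjusted p = 0.149) and the prolyl hydroxylase P4HTM 0.23 (0.229). The median of this list was -0.02.

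Of the 20 genes of glucose uptake and glycolysis, 4 were called higher and 0 lower, against 3.35% and 2.21% of all tested genes. Their median log2 FC was 0.23. PDK1, which shuts pyruvate dehydrogenase, had 35.6, 40.4 and 29.4 CPM in ACM and 24.6, 18.8 and 20.9 CPM in UCM, with no overlap (log2 FC 0.71, edgeR adjusted p = 0.0186). ENO2, an enolase, had 58.0, 77.6 and 49.5 CPM in ACM and 38.1, 31.5 and 39.0 CPM in UCM (0.77, edgeR adjusted p = 0.0396). The phosphofructokinase PFKL rose by less (0.40, edgeR adjusted p = 0.0318). The lactate exporter SLC16A3 rose at a low level, from at most 0.948 CPM in UCM to at least 1.68 CPM in ACM (1.86, edgeR adjusted p = 0.0304). Each of these 4 calls was lost without UCM replicate 2 (edgeR adjusted p from 0.0812 to 0.151), UCM replicate 3, ACM replicate 1 or ACM replicate 2, and that of ENO2 also without UCM replicate 1. With limma on either TPM scale ENO2 remained called, whereas PDK1, PFKL and SLC16A3 did not, and the value of SLC16A3 was 0.69 on log2(TPM + 1). Effective-length offsets also ended the calls of PFKL (edgeR adjusted p = 0.066) and SLC16A3 (0.0861). The largest values that were not called were those of the glucose transporter SLC2A3 (1.02, edgeR adjusted p = 0.0689) and of PFKFB4 (0.89, 0.0712), which sets the level of a phosphofructokinase activator. SLC2A3 was called only with the filter of 10 counts in every library (edgeR adjusted p = 0.0398). PFKFB4 was called by DESeq2 (adjusted p = 0.00259), with genes of at least 1 count in total kept, and without ACM replicate 3 (edgeR adjusted p = 0.00954).

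Of the 37 tested genes among the other hypoxia targets, 8 were called higher and 1 lower, against 3.35% and 2.21% of all tested genes. Their median log2 FC was 0.37. ANGPTL4, a secreted inhibitor of lipoprotein lipase that is also a target of fatty acid-activated receptors, had 222, 352 and 196 CPM in ACM and 29.7, 26.0 and 27.3 CPM in UCM. Its log2 FC of 3.21 (edgeR adjusted p = 0.00294) was the largest among the genes of the lists. PLOD2, a collagen lysyl hydroxylase, had 360, 402 and 359 CPM in ACM and 259, 239 and 244 CPM in UCM (0.59, edgeR adjusted p = 0.00232). VLDLR, a lipoprotein receptor, rose by 0.79 (edgeR adjusted p = 0.00401), the mitochondrial adenylate kinase AK4 by 0.81 (0.0153) and DDIT4, an inhibitor of mTORC1 that other stresses also induce, by 1.23 (0.0424). EDN1, the vasoconstrictor endothelin precursor, went the other way, with 9.22, 4.73 and 8.04 CPM in ACM and 19.7, 18.3 and 19.0 CPM in UCM (-1.37, edgeR adjusted p = 0.00802). The calls of ANGPTL4, PLOD2, VLDLR and EDN1 held in all 14 alternatives. AK4 was not called without UCM replicate 2 (0.0641) or 3 (0.0664), and the call of DDIT4 remained in 1 of the 6 fits that leave out a library and was lost with at least 1 count in total as the filter (0.13). The higher calls of this list that are not named here each remained in at most 2 of these 6 fits.

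STC1, a secreted glycoprotein, had 155, 449 and 140 CPM in ACM and 82.2, 80.9 and 84.5 CPM in UCM. ACM replicate 2 again stood far above the others, and the log2 FC of 1.58 was not called (edgeR adjusted p = 0.180), but it was 0.83 and called without ACM replicate 2 (edgeR adjusted p = 0.00178). DESeq2 also called STC1 (adjusted p = 0.0414). The nuclear receptor gene RORA had 1.20 (edgeR adjusted p = 0.0838). RORA was called by DESeq2 (adjusted p = 0.0414), with genes of at least 1 count in total kept, and without UCM replicate 1 (edgeR adjusted p = 0.0193). CA9, a carbonic anhydrase used as a hypoxia marker, had too few counts to be tested, with at most 1.46 CPM in ACM and 0.117 CPM in UCM. Its counts were 17, 26 and 6 in the ACM libraries and 2, 1 and 2 in the UCM libraries. FLT1 was at 0 counts in every library.

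Among ligand and receptor partners of VEGFA and ADM, 2 of 8 tested genes were called higher and 0 lower, against 3.35% and 2.21% of all tested genes. Their median log2 FC was 0.06. ADM2, a peptide related to ADM, had 19.9, 19.5 and 17.6 CPM in ACM and 8.10, 8.71 and 8.22 CPM in UCM (1.19, edgeR adjusted p = 0.00115), and this call held in all 14 alternatives. ADM2 thus passed the test while ADM did not, and the difference between them was not tested. NRP2, a co-receptor of VEGF family ligands, had 141, 148 and 127 CPM in ACM and 95.9, 65.4 and 63.3 CPM in UCM (0.89, edgeR adjusted p = 0.0259), and was not called without either of ACM replicates 1 and 2 or UCM replicates 2 and 3, nor with TPM or effective-length offsets. ACKR3 (-0.49, edgeR adjusted p = 0.0978) and RAMP2 (-0.48, 0.423) were not called. However, ACKR3 was called by DESeq2 (adjusted p = 0.0352), with genes of at least 1 count in total kept, and without UCM replicate 1 (edgeR adjusted p = 0.00479). The VEGF receptor genes KDR and FLT4 and the ADM receptor gene CALCRL were near 0 and were not tested, with at most 0.282, 0.466 and 0.0948 CPM in any library. Among relatives of NDRG1 and BNIP3, 0 of 6 tested genes were called by edgeR, with 1 higher and 0 lower at an unadjusted p of at most 0.05 (11.9% and 11.5% of all tested genes), and BCL2L1, an inhibitor of apoptosis, had 0.18 (edgeR adjusted p = 0.181). NDRG4 had 0.26 (0.841), and it changed sign in 5 alternatives.

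**Figure D5:**
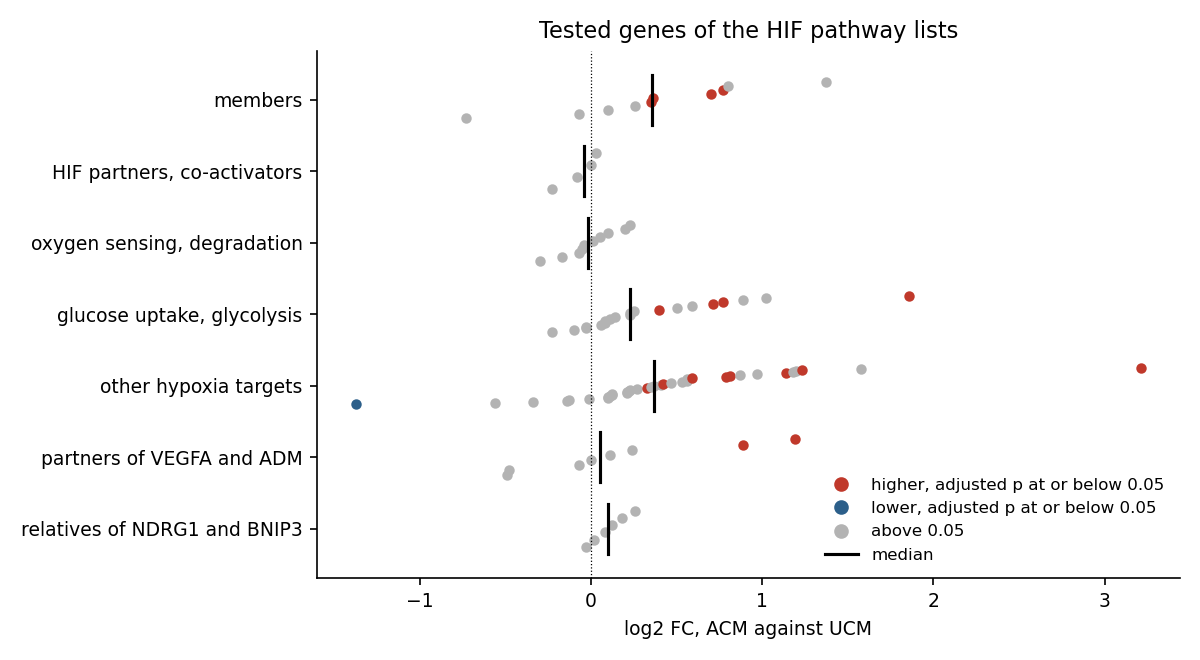
Log2 FC of ACM against UCM for each tested gene of the members and of the 6 lists (points), red for called higher, blue for called lower and grey for not called, with black bars at the list medians. Red points lie in the members, glycolysis, other targets, and partners of VEGFA and ADM, ANGPTL4 is furthest right at 3.21, and the blue point is EDN1 at -1.37.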

How the data were processed

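PolyA RNA of the 6 libraries was read in pairs of 150 bp, and the authors' tools were Trim Galore for trimming, STAR for alignment to GRCh38 and RSEM for quantification per library, whose versions and annotation are not given in the sources used here. For each gene the authors deposited an expected count, in which ambiguous reads are divided among genes, with no scaling. They also deposited TPM, scaled by effective length and to the library's sum, and the effective length itself, another gene-wise value in bases. A table of the authors' own fold changes, p-values and adjusted p-values was not used.

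For the comparison, expected counts were rounded, and edgeR 4.0.16 was run in R 4.3.3 (TMM, filterByExpr, robust quasi-likelihood fit, two-sided, Benjamini-Hochberg adjustment over all 14451 genes tested). CPM is per TMM-scaled total of the tested genes. Errors on log2 FC are the absolute log2 FC over the square root of the F statistic. The exact permutation test covered the ratios. Alternatives were DESeq2 1.42.0, RLE size factors, filters of 1 count in total and of 10 counts in every library, limma 3.58.1 on log2(TPM + 1) and log2(TPM + 0.1), effective-length offsets, a replicate block, the study's thresholds, and each library left out. The scripts were tested on simulated data. Gene symbols came from GENCODE 44 by identifier without version.

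The members and lists were chosen with earlier results of these data known. Named genes were all members and, per list, up to 6 called genes by p and up to 2 with the largest log2 FC not called. CA9, FLT1, HIF3A, KDR, FLT4 and CALCRL were named after their values were seen, as were CD68 and PTPRC. Like genes needed a mean of 1 CPM, and correlations used 0.5 CPM added.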

Additional observations from a re-analysis of the deposited data

How the results depend on the processing

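EPAS1 was called, and HIF1A, ADM and EGLN3 were not, in every alternative that gave an adjusted p. The members called higher numbered 4, but 7 with genes of at least 1 count in total, 2 with limma on log2(TPM + 1), and 1 to 4 with a library left out (2 without ACM replicate 2, 1 without UCM replicate 2 or 3). No alternative called a member lower. All genes called higher and lower numbered 484 and 320, but 1045 and 679 with at least 1 count in total, 230 and 132 with limma on log2(TPM + 1), 234 and 138 on log2(TPM + 0.1), 272 and 134 with effective-length offsets, and 125 to 738 and 62 to 572 with a library left out. Pathway genes called higher and lower numbered 14 and 1, but 25 and 3 with DESeq2, 25 and 4 with at least 1 count in total, 7 higher with limma on either TPM scale, 8 higher with offsets, and 4 to 18 and 1 to 5 with a library left out. For all genes and pathway genes, the low ends of these ranges came without UCM replicate 2 or 3, except for the 1 pathway gene lower. The high ends came without UCM replicate 1, or without ACM replicate 3 for pathway genes higher.

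The replicate block gave 909 and 703 genes, 6 members higher, and 22 and 3 pathway genes. It called ARNT (edgeR adjusted p = 0.0442) and VEGFA (0.0136) beside the 4 members. Of the named pathway genes it added CREBBP, PFKFB4, RORA and ACKR3 (from 0.0303 to 0.0457) and lost ENO2 (0.0971). The numbers are not known to pair the samples: same-numbered libraries correlated at 0.36, 0.04 and 0.23 in their deviations from the group means, and not every library correlated best with its own number.

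Signs turned for values that were not called: ADM was -0.05 without ACM replicate 1 (-0.05 to 0.31 over libraries left out), CITED2 0.03 without UCM replicate 3 (-0.19 to 0.03), and NDRG4 -0.12 and -0.34 with limma on log2(TPM + 1) and log2(TPM + 0.1), -0.02 with offsets, -0.57 without ACM replicate 1 and -0.07 without UCM replicate 3 (-0.57 to 0.66). The cause was not tested. Counts were low for EGLN3 (2 to 14 per library), for NDRG4 (7 to 44) and for the receptor genes KDR, FLT4 and CALCRL.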
